A study of Mus musculus with 2 samples.

Results

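Among the 7048 barcodes of 2 single-cell RNA-seq libraries of mouse dorsal meninges, 953 held more hemoglobin transcripts than all other transcripts together. A barcode was counted here when genes with symbols starting Hba- or Hbb- made up more than 50% of its unique molecular identifiers (UMIs, the tags that mark each captured transcript), with no limit on the number of detected genes. The rule took 562 of 2699 barcodes in the Sham library and 391 of 4349 in the library made after mild traumatic brain injury (TBI). The barcodes were therefore chosen on their hemoglobin values, and their hemoglobin share and globin levels are given as a description.

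Both libraries came from male mice, given as C57BL/6 in the sample records and as C57BL/6J in the methods of the study, aged 10 weeks by 1 field of the records and 10 to 12 weeks by another. The TBI mice received a mild closed-skull injury and the Sham mice the procedure without it, and the dorsal meninges were taken 1 week later. Tissue of 5 mice was pooled into 1 library per group, so no value below has a replicate, no test between the groups was made, and the injury cannot be told apart from any other difference between the libraries. Per the methods, the mice were perfused with heparinized saline, the digested tissue was sorted for singlets that excluded DAPI, and transcripts were captured from their 3' ends. The intervals in parentheses are exact 95% binomial ones, cover counting error only, and say nothing of how mice differ. The libraries share 20 barcode sequences, of which 5 belong to the hemoglobin-dominated set in Sham and 0 in TBI.

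Hemoglobin carries oxygen as a tetramer of alpha-like and beta-like chains, each of which holds a heme. Mammalian red cells lose their nucleus at the end of maturation, and reticulocytes, the youngest cells in the blood, still hold ribosomes and messenger RNA that are cleared as they mature. The messages that last longest are those of the globins, of heme synthesis and of the proteins that remodel the cell. In adult mice the alpha chain comes from Hba-a1 and Hba-a2 on chromosome 11 and the beta chain from Hbb-bs and Hbb-bt on chromosome 7, while Hba-x, Hbb-y and Hbb-bh1 serve the embryo.

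The sequence before the start of each major globin gene and of Alas2, the erythroid enzyme of the first step of heme synthesis, is shown. The globin genes dominate the barcodes described here, and Alas2 was among the 10 most abundant non-hemoglobin genes. Each run is the 250 bases before the start that RefSeq gives on GRCm38.p6, on the strand of the gene. Capitals mark letters of 3 motifs searched on both strands: GATA in the form AGATAA or in the form AGATAG, each also with a T as its first letter, the box CACCC, and the box CCAAT. Some GENCODE transcripts start within these windows.
Hba-a1, chr11:32283422-32283671, plus strand: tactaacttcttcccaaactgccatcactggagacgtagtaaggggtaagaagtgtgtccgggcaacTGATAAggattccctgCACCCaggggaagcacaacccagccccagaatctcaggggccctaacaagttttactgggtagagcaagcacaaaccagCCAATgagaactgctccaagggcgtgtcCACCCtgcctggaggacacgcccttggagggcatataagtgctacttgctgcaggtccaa
Hbb-bs, chr7:103827929-103828178, minus strand: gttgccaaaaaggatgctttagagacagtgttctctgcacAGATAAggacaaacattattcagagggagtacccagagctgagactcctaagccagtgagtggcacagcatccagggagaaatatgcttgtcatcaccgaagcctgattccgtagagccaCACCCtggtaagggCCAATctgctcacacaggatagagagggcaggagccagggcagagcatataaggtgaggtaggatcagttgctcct
Hbb-bt, chr7:103813924-103814173, minus strand: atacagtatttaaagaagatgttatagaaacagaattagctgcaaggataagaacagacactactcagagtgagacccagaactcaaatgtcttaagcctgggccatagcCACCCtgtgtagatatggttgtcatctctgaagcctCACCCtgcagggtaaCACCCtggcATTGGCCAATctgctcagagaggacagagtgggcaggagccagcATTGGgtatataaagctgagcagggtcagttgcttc
Alas2, chrX:150547167-150547416, plus strand: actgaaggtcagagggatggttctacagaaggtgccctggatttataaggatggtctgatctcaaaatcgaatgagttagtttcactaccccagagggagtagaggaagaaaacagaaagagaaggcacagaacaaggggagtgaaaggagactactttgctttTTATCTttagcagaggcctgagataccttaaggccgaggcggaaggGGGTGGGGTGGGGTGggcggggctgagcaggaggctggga
The window of Hba-a2 (chr11:32296242-32296491, plus strand) shares a run of 247 bases with that of Hba-a1 and is not printed again. Hba-a1 and Hbb-bs each held a GATA form, CACCC and CCAAT, with CCAAT 88 to 84 bases before the start of Hba-a1 and 76 to 72 bases before that of Hbb-bs. Hbb-bt held CACCC at 3 places and CCAAT at 3, among them a pair on opposite strands that lie end to end in ATTGGCCAAT, and none of the 4 GATA forms was found in its window. Alas2 held a GATA form 86 to 81 bases before the start and 3 matches of CACCC on the opposite strand. Of all 32851 RefSeq windows of this length, 26.5% held a GATA form, 52.0% CACCC, 33.9% CCAAT and 3.92% all of these, so single matches are common and are given as a description.

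The distribution of hemoglobin shares fell into separate groups in both libraries. The share of barcodes above the 50% limit was 20.8% (19.3 to 22.4) in Sham and 8.99% (8.16 to 9.88) in TBI. Few barcodes lay near the limit: 10 in Sham and 7 in TBI held 40 to 50% hemoglobin UMIs, with medians of 45.6% and 45.0%, and 16 and 18 held 50 to 60%, with medians of 57.6% and 57.0%. In all, 42 Sham and 40 TBI barcodes held between 5% and 50%. No barcode in the matrices had fewer than 502 UMIs in Sham or 501 in TBI, and 24 Sham and 110 TBI barcodes of the set lay between 500 and 1000, so the shares leave out any shallower cells. Above 90% there were 19 barcodes in Sham and 0 in TBI, where a count of 0 allows a share of up to 0.0690% (3 counts). The median share within the set was 78.3% in Sham (lowest 53.7%, highest 93.4%) and 77.5% in TBI (52.2% to 88.6%). Perfusion, digestion and the gate for living cells act before capture and can set such shares, and their part in the difference was not tested.

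**Figure D1:**
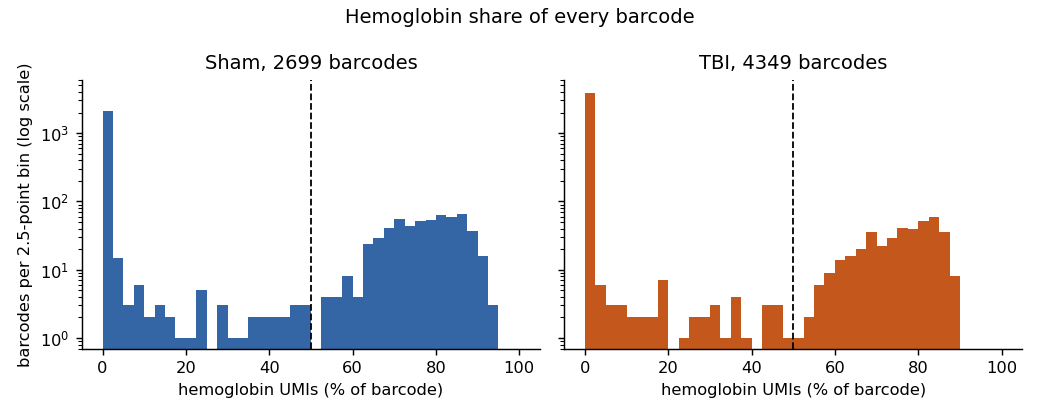
Histogram of the share of hemoglobin UMIs in every barcode of the Sham (left) and TBI (right) library, in bins of 2.5 points, with the number of barcodes on a log axis and a dashed line at 50%. Most barcodes lie near 0, 562 Sham and 391 TBI barcodes lie above the line, and 42 and 40 lie between 5% and 50%.

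The set held 94.9% of all hemoglobin UMIs of the Sham library and 91.4% of those of the TBI library. Outside it, hemoglobin made up 0.626% of UMIs in Sham and 0.303% in TBI, with medians per barcode of 0.131% and 0.0136%. The median depth of a hemoglobin-dominated barcode was 2118.5 UMIs (Sham) and 1402 (TBI), and the median number of non-hemoglobin UMIs was 430 and 290. They carried a median of 139 genes in Sham and 122 in TBI, against 1290 and 1310 in the other barcodes, and 313 and 255 of them had fewer than 150 genes. When each was thinned to 500 UMIs the order of the medians turned, with 58.5 genes in Sham and 63 in TBI. In total the set held 303087 non-hemoglobin UMIs in Sham and 163538 in TBI, and levels below are counts per 1000000 of these UMIs (CPM). A gene with no UMI in the set can have up to 9.90 CPM in Sham and 18.3 in TBI, by the limit of 3 counts.

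The alpha genes took a smaller part of the counted globin UMIs in the TBI library. Alpha UMIs were 43.5% of globin UMIs in Sham (43.4 to 43.6) and 37.1% in TBI (36.9 to 37.2), a difference of -6.38 percentage points (-6.56 to -6.21). Per barcode the median was 43.4% in Sham (lowest 30.1%, highest 65.6%) and 37.0% in TBI (26.7% to 63.1%). The distributions overlapped in their tails, since 98.4% of Sham barcodes lay above the TBI median and 6.39% of TBI barcodes above the Sham median. Below 40% alpha were 11.2% of Sham and 81.8% of TBI barcodes. The spread between barcodes was larger than counting gives, with an SD of 3.2 points in Sham where counting alone gives 1.3, and 4.05 in TBI where it gives 1.58.

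The difference was present at each depth and hemoglobin share that could be compared. In bins of hemoglobin share from 50 to 90% the alpha share ran from 42.3% to 43.8% in Sham and from 36.5% to 37.9% in TBI. In bins of depth from 500 to 6000 UMIs it ran from 42.9% to 44.2% in Sham and from 36.1% to 39.1% in TBI, so the ranges of the libraries did not meet. The same order held outside the set, where the rule did not select. Barcodes with 5 to 50% hemoglobin had 44.1% alpha in Sham (43.7 to 44.6) and 36.7% in TBI (36.2 to 37.1). Barcodes with at most 5%, in which hemoglobin UMIs were few, had 47.1% (46.2 to 47.9) and 41.2% (39.6 to 42.7). All globin UMIs of a library passed through the same capture and sequencing, and the part of those steps in the difference was not tested.

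**Figure D2:**
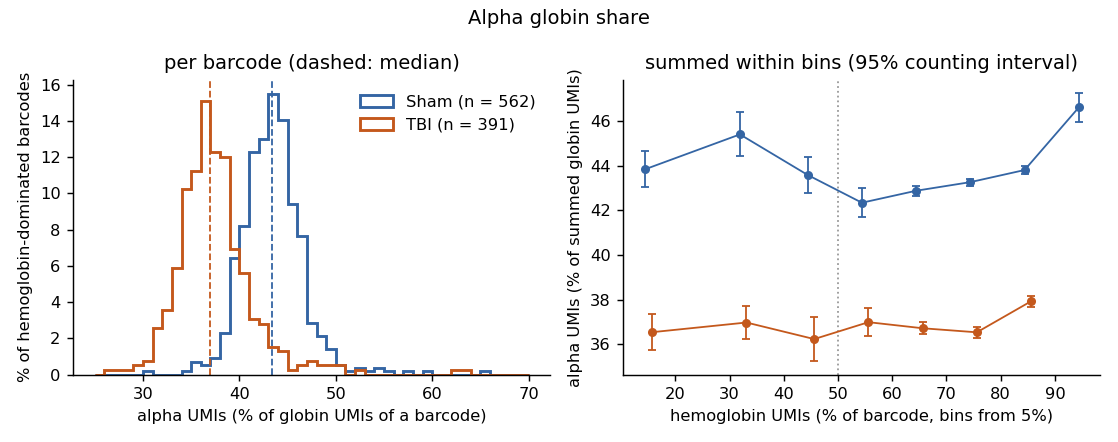
Left, the alpha share of globin UMIs per hemoglobin-dominated barcode (x axis, %) as a percent of the 562 Sham and 391 TBI barcodes, with dashed lines at the medians of 43.4% and 37.0%. Right, the alpha share summed over barcodes in bins of hemoglobin share from 5% upwards, with exact 95% counting intervals and a dotted line at the 50% limit: every Sham bin lies above every TBI bin.

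Of the 4 major genes, Hbb-bs had the most counted UMIs in both libraries. It made up 46.3% of globin UMIs in Sham (46.2 to 46.4) and 53.1% in TBI (52.9 to 53.2). Hba-a1 made up 24.0% and 20.4%, Hba-a2 19.4% and 16.7%, and Hbb-bt 10.3% and 9.84%. All 4 were counted in 100% of the barcodes of the set. On the CPM scale, relative to non-hemoglobin UMIs, both alpha genes were lower in TBI, with log2 ratios of TBI over Sham of -0.41 for Hba-a1 and -0.40 for Hba-a2, while Hbb-bs stood at 0.02 and Hbb-bt at -0.24.

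The 2 alpha genes kept nearly the same proportion. Hba-a2 was 44.7% of alpha UMIs in Sham (44.5 to 44.8) and 45.0% in TBI (44.7 to 45.2). Hba-a1 and Hba-a2 lie on either side of Hbq1b on chromosome 11, and their transcripts share a run of 415 bases. Of the windows of 98 bases, the length of the read, in the last 300 bases of the Hba-a1 transcript, 51.7% also occur in that of Hba-a2, and 43.8% the other way round. Reads that match more than 1 gene are not counted by Cell Ranger, so the counted proportions are not those of the transcripts. For Hbb-bs and Hbb-bt the shares of such windows were 21.7% and 21.2%.

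By SD, Hbb-bt, the minor adult beta gene, varied more between barcodes than any other globin proportion computed here. It was 18.2% of beta UMIs in Sham (18.1 to 18.3) and 15.6% in TBI (15.5 to 15.8), and ran from 2.65% to 29.9% over Sham barcodes and from 1.52% to 24.9% over TBI barcodes. The SD was 4.73 points in Sham and 5.44 in TBI, where counting gives 1.34 and 1.52. Among the bins above 50% hemoglobin it was highest at 60 to 70%, with 21.3% in Sham and 18.7% in TBI. It was 19.9% and 17.9% in the bin of 50 to 60% and 15.8% and 12.7% in that of 80 to 90%. Outside the set, the TBI bin of 25 to 40% hemoglobin had 19.8%. Within the set the share also varied with depth. It was higher in deeper barcodes, at 15.0% between 500 and 1000 UMIs and 21.1% between 3000 and 6000 in Sham, and at 10.3% and 20.5% in TBI. Between 1000 and 1500 UMIs the libraries were at 15.4% and 12.5%, between 1500 and 2000 at 15.2% and 15.8%, and between 2000 and 3000 at 17.9% and 18.0%. Over the whole range from 1000 to 3000 UMIs the difference was -0.918 points (-1.11 to -0.72), against -2.55 (-2.71 to -2.38) in the whole set.

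The embryonic globins were almost absent. Hba-x had 3 UMIs in Sham and 0 in TBI, Hbb-y 0 and 2, and Hbb-bh1 and Hbb-bh2 0 in both. The theta-like genes Hbq1a and Hbq1b, which lie beside the alpha genes (chr11:32300069-32300873 and chr11:32286965-32287784, plus strand) and are not covered by the rule, were found at low levels. Hbq1a was at 640.1 CPM for Sham and 526 for TBI, and was counted in 24.2% and 17.6% of barcodes. Hbq1b stood at 742 and 648.

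The transcripts beside hemoglobin were led by a small group of genes. The 10 most abundant held 41.6% of non-hemoglobin UMIs in Sham and 40.2% in TBI. First came Gm42418, a non-coding gene on chromosome 17 that overlaps the ribosomal RNA repeat, with 10.1% (9.98 to 10.2) in Sham and 12.2% (12.0 to 12.4) in TBI, against 2.90% and 2.35% in other barcodes. Its order turned in barcodes above 25% hemoglobin, with a log2 ratio of TBI over Sham of -0.138 (-0.162 to -0.114). The ratio was -0.0334 (-0.0704 to 0.0033) in those with at least 150 genes. In those with 1000 to 3000 UMIs it was -0.0013 (-0.0340 to 0.0313). Both of these intervals held 0. Alas2 followed with 74305 CPM in Sham and 68229 in TBI, and Gpx1, a glutathione peroxidase that removes peroxides, with 57281 and 45855. The others included Ubb (ubiquitin, 41259 and 35136), Bpgm (bisphosphoglycerate mutase, which lowers the oxygen affinity of hemoglobin through its product, 31941 and 26385), Ftl1 (ferritin light chain, 28794 and 29492), Pabpc1 (a poly(A)-binding protein, 22155 and 19946), Ube2l6 (an enzyme of ISG15 and ubiquitin conjugation, 21832 and 20203), and Oaz1 (antizyme of polyamine synthesis, 18566 and 17592).

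Set beside the other barcodes of the same library, on the CPM scale, 240 of 495 genes with at least 50 UMIs were at least 2-fold higher in both libraries (48.5%) and 138 at least 2-fold lower (27.9%). Since the set was chosen on these same cells, these ratios describe it and test nothing. At least 10-fold higher were 130 genes and at least 100-fold higher 28, and the 130 held 59.7% of the non-hemoglobin UMIs in Sham and 52.1% in TBI. The 15 genes with the highest ratio in the library where it was smaller included Hbq1a, Alas2, F930017D23Rik, Bpgm, Hbq1b, Tspo2, Rec114, Apol11b, Trim10, Tent5c, Ube2l6, Fech and Epb42. Alas2 was 565.6-fold higher than in other barcodes in Sham and 955-fold in TBI, and Fech, which inserts the iron into heme, 242-fold and 235-fold. Rec114, known for its part in meiotic recombination, was 280.4-fold and 503-fold higher, and the non-coding F930017D23Rik 532-fold and 477-fold. Of the 15, 12 had a promoter in the RefSeq table, of which 6 held a GATA form, 6 CACCC, 6 CCAAT and 1 all of these, beside 26.5%, 52.0%, 33.9% and 3.92% of all windows.

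**Figure D3:**
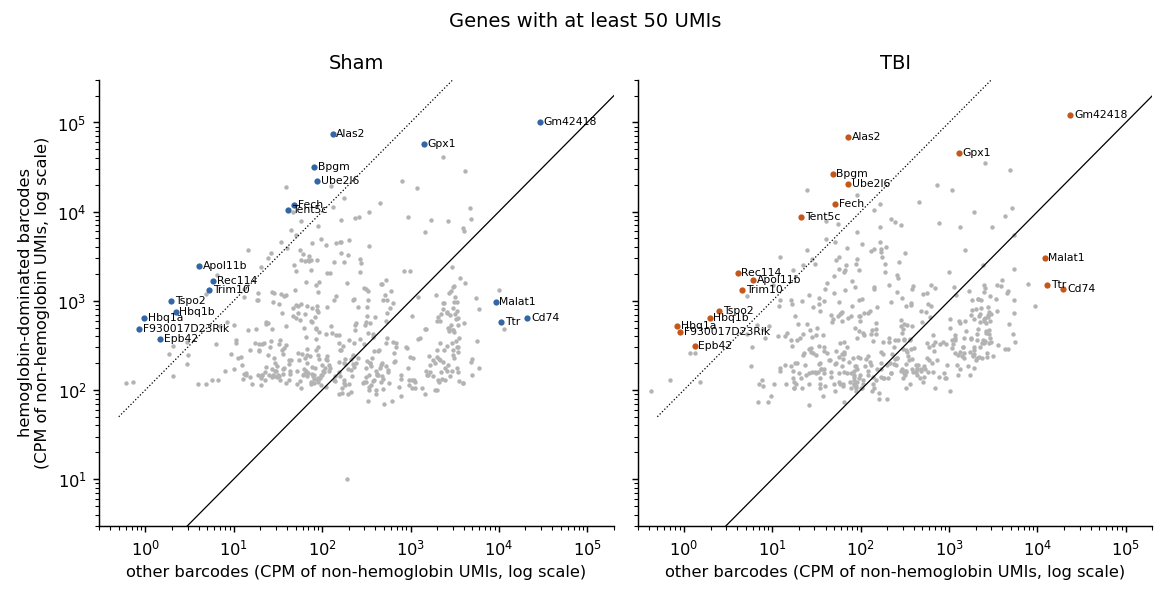
Each point is 1 of 495 genes with at least 50 UMIs in the hemoglobin-dominated barcodes, with its level in CPM of non-hemoglobin UMIs in other barcodes (x axis, log scale) and in the set (y axis, log scale), for Sham (left) and TBI (right). The solid line marks equal levels and the dotted line a 100-fold higher level in the set: Alas2 and Bpgm lie above the dotted line, and Malat1, Ttr and Cd74 below the solid line.

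The red cell identity of the set was described with 12 markers that the rule did not use. They were chosen with earlier results of these data known, so they are no independent check. Each had a UMI in a larger share of barcodes of the set than of those with at most 5% hemoglobin, in both libraries. Alas2 had a UMI in 100% of Sham and 98.7% of TBI barcodes, against 7.59% and 1.89% of those with at most 5% hemoglobin. Slc4a1, the anion exchanger of the membrane, was found in 39.7% and 25.6%, against 0.239% and 0.281%. Bnip3l, which clears mitochondria from reticulocytes, was found in 96.6% and 84.9%, against 38.6% and 35.1%, and Slc25a37, the mitochondrial iron importer, in 79.7% and 64.2%, against 7.54% and 6.15%. These shares depend on depth, which was lower in TBI, and are not compared between the libraries.

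By pathway, heme synthesis was carried almost wholly by Alas2 and Fech. Of its 11 genes, 4 had at least 50 UMIs in the set and could be set beside other barcodes. All 4 were at least 2-fold higher in the set (48.5% of all compared genes were), among them Urod (666 and 618 CPM). That minimum is counted in the set and favours genes that are high there. Such counts of list members therefore test nothing, here or below. Under the minimum, Tmem14c, a porphyrin transporter of mitochondria, had 3 UMIs in Sham and 1 in TBI (0.07-fold and 0.06-fold of other barcodes). Alad stood at 0.77-fold and 0.53-fold, and Cpox at 3.84-fold and 2.77-fold. In iron handling, Ftl1 and Fth1 were abundant while Tfrc, the transferrin receptor that developing red cells carry, had 2 UMIs in each library.

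All 9 membrane and skeleton genes with enough UMIs were at least 2-fold higher in the set, where 48.5% of all compared genes were. They included Cd24a (9786 CPM in Sham and 8218 in TBI) and Epb41, the protein 4.1 of the skeleton (5500.1 and 4916). Among 12 redox, gas and glycolytic genes, 6 reached the minimum and all 6 were higher, with Prdx2 (8661 and 7038), Car2 (carbonic anhydrase 2, 6899 and 5925) and Cat (catalase, 4223 and 3620.0). The glycolytic genes Gapdh, Pkm, Aldoa and Pgk1 had 17 UMIs or fewer each in either library. They were lower in the set, from 0.08-fold (Aldoa in Sham) to 0.19-fold (Pkm in TBI) of other barcodes. Car1, also below the minimum, was 171-fold and 4.48-fold higher. It had 9 UMIs in the set and 1 in other barcodes of Sham, and 3 and 68 in TBI. The Sham ratio thus rests on 1 UMI outside the set. All 13 genes of reticulocyte maturation and protein turnover that could be compared were higher, among them Mkrn1, a ubiquitin ligase (19308 and 15281), Gabarapl2 of the autophagy machinery (8545 and 7576) and Tent5c, a poly(A) polymerase (10410 and 8756).

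Transcripts of earlier stages were scarce. Of 9 transcription factors and receptors of erythroid development only Lmo2 was above 100 CPM (716 and 599), Gata1 had 6 UMIs in Sham and 2 in TBI, Klf1 0 and 1, and Gfi1b, Epor and Kit 0 in both. The 8 genes of cell division together had 17 UMIs in Sham and 11 in TBI. Mitochondrially encoded transcripts were 1.25% of non-hemoglobin UMIs in Sham (1.21 to 1.29) and 1.44% in TBI (1.38 to 1.49), against 2.20% and 3.15% in other barcodes. The medians per barcode of the set had the other order, 0.874% in Sham and 0.671% in TBI, and above 75% hemoglobin the difference of the summed shares turned to -0.215 points. Ribosomal protein transcripts were 3.83% (3.76 to 3.90) and 4.48% (4.38 to 4.58), against 17.6% and 14.6%. The size of that difference, 0.648 points, depended on the barcodes taken. It was 0.166 with at least 150 genes, 0.190 at 1000 to 3000 UMIs and 1.76 above 75% hemoglobin.

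Within the set the levels of several non-hemoglobin genes differed with the hemoglobin share, in the same direction in both libraries. From barcodes with 60 to 70% hemoglobin to those with 80 to 90%, Alas2 went from 49618 to 124713 CPM in Sham and from 50115 to 109969 in TBI. Ftl1 went from 18686 to 48641 and from 19904 to 49729, and Ube2l6 from 15991 to 32834 and from 16005 to 27800. Other genes were lower at the higher share. Gpx1 went from 75769 to 18652 in Sham and from 68804 to 9505 in TBI, Car2 from 10882 to 819 and from 9628 to 389, and Slc4a1 from 3124 to 445 and from 2273 to 129.8. Cat and Prdx2 were also lower in the 80 to 90% bin than in the 60 to 70% bin in both libraries. In the bin of 50 to 60%, which holds 16 Sham and 18 TBI barcodes, Gpx1 stood at 64046 and 57243, below its level in the next bin, as did Cat and Prdx2. Bnip3l went in opposite directions, from 12258 to 16970.0 in Sham and from 12312 to 11289 in TBI. Ribosomal protein transcripts were 3.37% and 5.38% of non-hemoglobin UMIs in these bins in Sham and 3.29% and 7.10% in TBI. Depth moved with the bins, since their median UMIs were 2838.5 and 1878 in Sham and 2103.5 and 1253 in TBI, and its part was not tested.

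Across the barcodes of 1 library, the shares of Alas2 and Gpx1 in the non-hemoglobin UMIs ran in opposite directions, with Pearson's r of -0.60 and Spearman's rho of -0.61 over 562 Sham barcodes and -0.43 and -0.42 over 391 TBI barcodes. Gpx1 and Car2 ran together (r of 0.50 and rho of 0.62 in Sham, 0.59 and 0.68 in TBI). These are descriptions over barcodes that share a library and, in each barcode, a depth and a denominator.

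**Figure D4:**
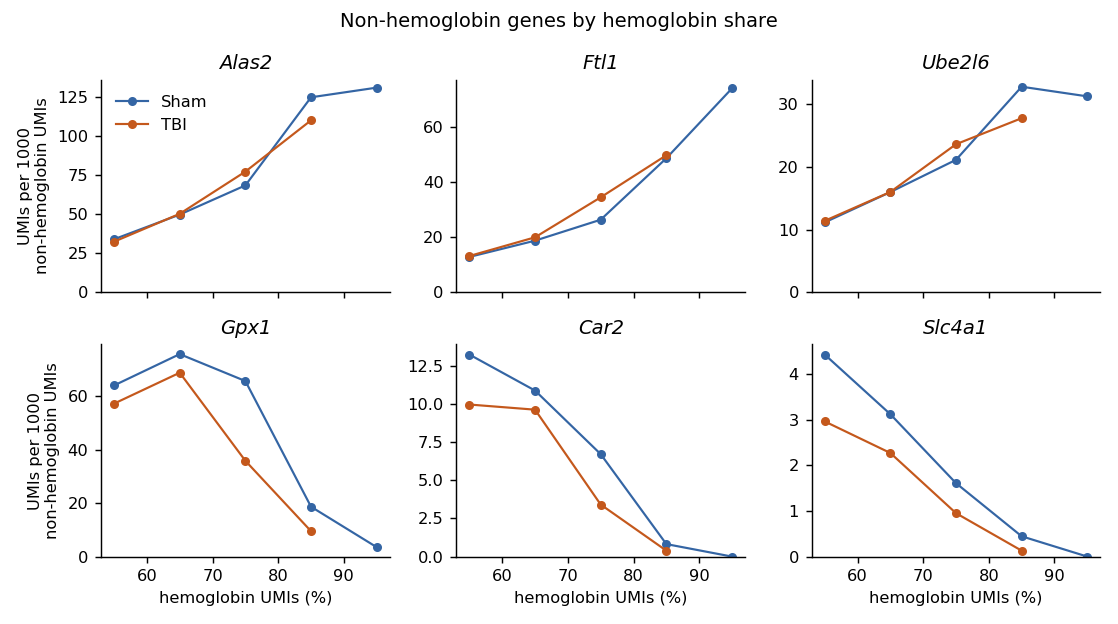
Level of 6 genes (y axis, UMIs per 1000 non-hemoglobin UMIs) in hemoglobin-dominated barcodes summed in bins of hemoglobin share (x axis, %, points at bin centres) for Sham and TBI. Alas2, Ftl1 and Ube2l6 are higher in the bin of 80 to 90% than in that of 60 to 70% in both libraries, and Gpx1, Car2 and Slc4a1 lower. No TBI barcode lies above 90%.

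Between the libraries, the non-hemoglobin genes most enriched in the set differed by less than 2-fold in the whole set, while fibroblast and macrophage markers were higher in TBI. Among 879 genes with at least 20 UMIs, 115 (13.1%) had a log2 ratio of TBI over Sham of at least 1 and 18 (2.05%) of at most -1, with a median of 0.10. Most of these had few UMIs, and of the 316 with at least 100 UMIs, 11 were higher by this limit and 0 lower. The 130 genes at least 10-fold higher in the set than outside had a median of -0.21, 108 of them lay below 0, and none reached a log2 ratio of 1 in either direction. None of the tested genes of the 7 red cell lists reached it either (5 of heme synthesis, 4 of iron, 15 of the membrane, 9 redox and glycolytic, 16 of maturation, 2 factors and 2 minor globins), with list medians from -0.25 to -0.04. This changed with the barcodes taken. Above 75% hemoglobin, 28 of 119 tested genes of the 130 and 7 of 34 of the red cell lists lay at -1 or less and 0 at 1 or more, where of all 426 genes tested 10.6% lay at -1 or less and 12.4% at 1 or more. Among them were Gpx1 at -1.17 (-1.28 to -1.07), Slc4a1 at -1.08, Cat and Car2. With 1000 to 3000 UMIs, 3 of the 130 and 4 of 43 list genes lay at 1 or more and 0 at -1 or less, beside 10.5% and 1.48% of all 607 tested, so the share of list genes at 1 or more was near that of all genes. The 12 red cell markers had a median of -0.25, with 11 of them below 0. Alas2 stood at -0.12 (-0.16 to -0.09), Bpgm at -0.28 (-0.33 to -0.22), Mkrn1 at -0.34 (-0.41 to -0.27) and Fech at 0.03 (-0.05 to 0.11), all relative to the whole non-hemoglobin RNA. Scaled by the sum of the 12 markers in place of that total, which moves every gene alike and brings the markers near 0 by construction, Alas2 stood at 0.06.

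Among genes with at least 100 UMIs, the 5 highest in TBI were Mgp, Igfbp5, Apoe, Cst3 and Malat1. Mgp, an inhibitor of calcification made by vascular and stromal cells, had a level of 75.9 CPM for Sham and 618 for TBI, a log2 ratio of 3.0 (2.36 to 3.75) that ran from 2.21 in barcodes with at least 150 genes to 3.70 above 25% hemoglobin. Igfbp5, a binding protein of insulin-like growth factors, stood at 148 and 599 (2.00, 1.49 to 2.56). Its ratio ran from 1.07 in barcodes with at least 150 genes to 3.25 above 75% hemoglobin, and was 3.2 without the 5% of barcodes with the most non-hemoglobin UMIs. Apoe, a lipid carrier, stood at 119 and 428 (1.84, 1.25 to 2.47). Cst3, a protease inhibitor, stood at 205 and 734 (1.84, 1.39 to 2.31) and Malat1, a nuclear RNA, at 957 and 3015 (1.65, 1.44 to 1.87). All 5 were lower in the set than in the other barcodes of both libraries. All 5 were also higher in TBI in the other barcodes, with log2 ratios of 1.61 for Mgp, 1.59 for Igfbp5, 0.40 for Apoe, 0.39 for Malat1 and 0.17 for Cst3. Lower in the set than outside it in both libraries were 107 of the 115 higher genes, 8 of the 18 lower ones and 48.9% of the 879 tested.

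The 5 lowest were Cd36, Wbp2, Ptp4a3, Serinc3 and Cript. Cd36, a fatty acid receptor, was at 647 CPM for Sham and 336 for TBI (log2 ratio -0.93, -1.40 to -0.51), and was 12.9-fold and 5.80-fold higher in the set than outside. Ptp4a3, a phosphatase, stood at 1019.5 and 593 (-0.78, -1.13 to -0.45). None of the 5 reached a log2 ratio of -1 in the whole set. Above 75% hemoglobin Cd36 stood at -2.24, Ptp4a3 at -1.06 and Serinc3 at -1.02, as means over barcodes Cd36 stood at -1.17, Wbp2 at -1.07 and Serinc3 at -1.04, and Wbp2 stood at -1.20 without the 5% of barcodes with the most non-hemoglobin UMIs.

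**Figure D5:**
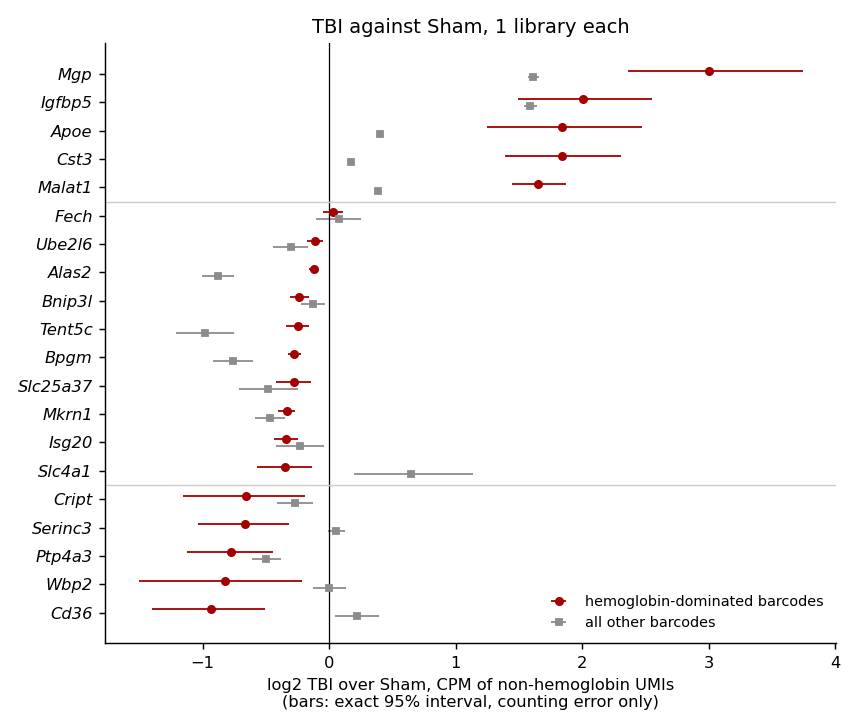
Log2 ratio of TBI over Sham (x axis, from CPM of non-hemoglobin UMIs) for the 5 highest genes, 10 of the red cell markers and the 5 lowest genes, in hemoglobin-dominated barcodes (red circles) and in all other barcodes (grey squares), with exact 95% intervals for counting error. Of the 10 markers drawn, 9 lie between -0.35 and 0 in the set, and Mgp lies at 3.0.

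Markers of 8 other cell types, 51 genes, were counted in the set, and whether these transcripts came from the captured cell, from free RNA or from doublets was not tested. Together they held 2290 CPM in Sham and 5834 in TBI, against 52474 and 57871 in other barcodes. The log2 ratio was 1.35 (1.21 to 1.49). In Sham 7 of the 51 were at 0 and Cd74 led with 196 UMIs, and in TBI 12 were at 0 and Ttr led with 246. The fibroblast markers held 66.0 and 960.0 CPM, against 823 and 2609.5 in other barcodes. All 4 with enough UMIs had a log2 ratio above 1, as 13.1% of all tested genes did. These were Col1a1 (3 UMIs in Sham and 54 in TBI), Col1a2 (5 and 35), Dcn (4 and 35) and Apod (5 and 15). They reached the minimum of 20 UMIs mostly through their TBI counts, so their number above 1 is a description and tests nothing. The macrophage markers held 1033 and 2458, while in other barcodes their sums were 32820 and 35045. Of 8 listed, 6 had enough UMIs and all 6 were above 1, beside the same 13.1%. Among these, C1qa (9 UMIs in Sham and 14 in TBI) and C1qc (8 and 14) passed the minimum only with their TBI counts. Mrc1 (4 and 7) and Csf1r (2 and 3) did not pass it. The number of macrophage markers above 1 is therefore also a description and tests nothing. Choroid plexus and pineal markers held 709 and 1645. Of the platelet markers Ppbp, Gp9, Gp1bb, Itga2b and Treml1 were at 0 in both libraries and Pf4 had 1 and 8 UMIs. B cell markers held 109 and 147 (33 and 24 UMIs), of which Cd79a had 15 UMIs in Sham and 4 in TBI (49.5 and 24.5 CPM). Endothelial markers held 135 and 196, but Plvap, the only one with enough UMIs for a ratio, had 17 and 5 UMIs (log2 ratio -0.78, -2.67 to 0.62). The sums were 198 and 349 for neutrophil markers, and 36.3 and 30.6 for T and NK cell markers, which had 11 and 5 UMIs, too few for a direction. The part of these transcripts in the 115 higher genes was not tested.

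Of 18 interferon-induced genes listed after values had been seen, 7 could be set beside other barcodes, of which 4 were at least 2-fold higher in the set and 2, Ifitm3 and Ly6e, at least 2-fold lower, beside 48.5% and 27.9% of all compared genes. Of the 18, 11 could be compared between the libraries, with a median log2 ratio of 0.76, 2 at 1 or more and none at -1 or less, beside 13.1% and 2.05% of all tested genes. Isg20, an exonuclease, was at 10010 CPM for Sham and 7919 for TBI (-0.34, -0.43 to -0.24), and Rsad2 (viperin) at 6196 and 4586 (-0.43, -0.56 to -0.31). Both were among the 4 that were higher than in other barcodes, Isg20 212-fold and 197-fold and Rsad2 140.2-fold and 88.6-fold. Isg15, the ubiquitin-like modifier with which Ube2l6 works, stood at 2755 and 4537 (0.72, 0.58 to 0.86) and was found in 33.5% of Sham and 25.8% of TBI barcodes. The order was not the same at every depth, with 5039 and 693 CPM between 500 and 1000 UMIs, 2266 and 2317 between 1000 and 1500, and 3063 and 8760 between 1500 and 2000, and at 80 to 90% hemoglobin the levels were 1379.5 and 1200.2. Irf7, a transcription factor of the interferon response, stood at 449 and 758 (0.76, 0.39 to 1.12). The list thus held members on both sides of 0.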

How the data were processed

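The deposited matrices hold whole UMI counts for each gene in each barcode, which the authors made with Cell Ranger on mm10 by mapping reads, collapsing UMIs and calling cells. The methods name version 1.3.1, the submitters' processing notes 2.1.1 and the matrix headers 3.1.0. The matrices hold 2699 (Sham) and 4349 (TBI) barcodes, more than the number of cells from which the methods start, and none under 501 UMIs. The limits in the methods (150 to 5000 genes, at most 20% mitochondrial and 5% hemoglobin UMIs) leave 2043 and 3773 of them and 0 of the set. No filter was applied here, and all 32285 genes and 9527334 (Sham) and 15011079 (TBI) UMIs were used. The barcodes described were chosen by their hemoglobin share, and the members and gene lists were chosen with earlier results of these data known. The interferon-induced and ribosomal RNA repeat lists and 3 alternatives were added after values had been seen. Doublets were not called and were left in. Barcodes were summed per library. Levels are counts per 1000000 non-hemoglobin UMIs (CPM), compared as log2 ratios with 0.5 added to each sum, and exact binomial intervals (for differences of shares, Newcombe intervals from exact limits) cover counting error only. A gene counted as higher or lower at a log2 ratio of at least 1 in size among genes with at least 20 UMIs, and at 2-fold against other barcodes with at least 50.

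Genes were named if they were on 17 lists, among the 10 most abundant, the 15 highest against other barcodes, or the 5 highest and lowest in TBI with at least 100 UMIs, and some of these are not reported here. Sequences are from RefSeq (GRCm38.p6), positions and transcripts from GENCODE on GRCm38. The ratio and interval steps were tested on simulated data. Python 3.11.15, numpy 2.4.6, scipy 1.17.1, pandas 2.3.3 and matplotlib 3.10.9 were used. DESeq2 and Seurat, named in the processing notes, were not used.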

Additional observations from a re-analysis of the deposited data

How the results depend on the processing

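Each group is 1 library, so no alternative adds a replicate, and counts of genes moved most. Differences are TBI minus Sham in percentage points. With hemoglobin above 25%, Hbb-bt of beta was -2.35, the mitochondrial share 0.838, the ribosomal protein share 1.26, 340 genes were higher (1308 tested) and the log2 ratio of other cell markers was 1.59. Above 75% the share of barcodes was -7.47, Hbb-bt -3.09, the mitochondrial share turned to -0.215, the ribosomal protein share was 1.76, 53 genes were higher and 45 lower and the markers 1.61. Above 90% only the share of barcodes (-0.704) could be given, since TBI had none. With at least 150 genes the share was -7.13, alpha -6.77, Hbb-bt -1.98, mitochondrial 0.273, ribosomal protein 0.166, 35 genes higher and 9 lower, and the markers 1.06. Without the 5% of barcodes with the most non-hemoglobin UMIs the mitochondrial share was 0.287. As means over barcodes, alpha was -6.00 and Hbb-bt -3.44, with 39 genes lower. With no minimum of UMIs 3666 genes were higher and 738 lower (median log2 ratio 0.89), and with at least 50 UMIs 20 and 2 (-0.04). Thinned to 500 UMIs, the median number of genes turned from -17 to 4.5. Of alternatives chosen after seeing the data, barcodes with 1000 to 3000 UMIs gave Hbb-bt -0.918, mitochondrial 0.301, ribosomal protein 0.190, 64 genes higher and 9 lower and markers 1.06, and scaling by the 12 red cell markers gave 11 lower and moved the median of all genes from 0.10 to 0.28. Among single genes, Gm42418 turned from 0.27 to -0.138 above 25% hemoglobin. It stood at -0.0334 with at least 150 genes and at -0.0013 at 1000 to 3000 UMIs, where the intervals held 0. The intervals of Oaz1 above 75% (0.0171) and of Pabpc1 at 1000 to 3000 UMIs (0.0306) also held 0. Scaling by the 12 markers, which shifts every gene alike, turned Alas2 (0.0589), Ube2l6 (0.0703) and Oaz1 (0.10). By that scaling Pabpc1 stood at 0.0306, with an interval that held 0. Ftl1 and Fech, whose intervals held 0, stood at -0.0995 and -0.127 above 25%, and Ftl1 at -0.157 at 1000 to 3000 UMIs. In all other settings that gave a value, the alpha share difference lay between -6.49 and -6.29. The cause of these shifts was not tested. No paired analysis was possible because each group has 1 library.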

Other observations

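Barcodes with at least 2 UMIs of Klf1, a transcription factor of developing red cells, were found after values had been seen. There were 7 in TBI and 0 of 2699 in Sham, where a count of 0 allows up to 0.111%. None belonged to the hemoglobin-dominated set: their hemoglobin share ran from 0.288% to 32%, their depth from 839 to 6010 UMIs and their genes from 558 to 1839. The barcode with the most Klf1 had 14 UMIs of it, 18.1% hemoglobin, 58 UMIs of Car2, 25 of Alas2 and 8 of Mki67, a marker of dividing cells. Of the 7, 6 had at least 2 UMIs of Mki67, and none had a UMI of the leukocyte marker Ptprc.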
